A study of Saccharomyces cerevisiae with 2 samples.

Results

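The genes described here are 9 genes of Saccharomyces cerevisiae known from stationary phase, desiccation and general stress: SIP18, GRE1, HSP12, HSP26, DDR2, SPG1, SPG4, RTN2 and STF2. They were taken by name from a table of 7126 rows, and all 9 had a row. The name column of the table gave 2 of them (HSP12 and DDR2), and the other 7 were found through the systematic gene identifier that the R64 reference annotation pairs with the symbol. The genes were chosen by their TPM in these same libraries, so their levels and ratios are a description and carry no test. The data are 2 polyA-selected RNA libraries of BL03-D-4, a lycopene producer, from 1 culture in YPD and 1 culture in YPM, each kept at 30 °C for 24 h. YPM is a modified YPD with added phosphate and sulfate salts, a trace metal solution and a yeast extract of another manufacturer and lot. Both cultures share 1 strain derived from BY4742, in which GAL80 was deleted and its locus carries crtB, crtI and crtE of the carotenoid pathway, each behind a copy of the HSP26 promoter, ALD6 was deleted, and a truncated HMG-CoA reductase is driven by the CIT1 promoter. The comparison asks which transcripts differ between the medium with high carotenoid yield and the medium with low yield.

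When yeast runs out of glucose and stops dividing, it represses growth genes and turns on a broad stress program. Much of that program is run by the transcription factors Msn2 and Msn4, which bind the stress response element (STRE), and by Gis1, which binds the related post-diauxic element, while Hsf1 acts through heat shock elements. Among the best known products are hydrophilins, small glycine-rich and very hydrophilic proteins that accumulate when water is lost, and small heat shock proteins, which hold unfolding proteins in a soluble state. TPM, the unit of the table, is the authors' estimate of transcript abundance after a correction for length and for the library total, so levels of different genes can be set side by side.

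The promoters of 5 of the genes are shown because they belong to the most abundant transcripts and, for HSP26, because copies of its promoter drive the carotenoid genes, and for GRE1 because it is the paralog of SIP18. Each sequence runs from 400 to 101 bases before the start of the coding sequence, 5′ to 3′ on the strand of the gene, as read from the RefSeq genome R64. Capitals mark matches to the STRE core CCCCT and to TATAAA on either strand. SPG4 is not shown, although it ranked 7 in YPD, above DDR2 at 9. Its window of the same span held 0 whole matches to either motif. The windows lie at chrXIII:610616-610915 on the plus strand for SIP18, chrXVI:129239-129538 on the minus strand for GRE1, chrII:381630-381929 on the plus strand for HSP26, chrVI:106856-107155 on the plus strand for HSP12, and chrXV:231856-232155 on the minus strand for DDR2. The sequence of the promoter copies as cloned in BL03-D-4 was not used here.
SIP18: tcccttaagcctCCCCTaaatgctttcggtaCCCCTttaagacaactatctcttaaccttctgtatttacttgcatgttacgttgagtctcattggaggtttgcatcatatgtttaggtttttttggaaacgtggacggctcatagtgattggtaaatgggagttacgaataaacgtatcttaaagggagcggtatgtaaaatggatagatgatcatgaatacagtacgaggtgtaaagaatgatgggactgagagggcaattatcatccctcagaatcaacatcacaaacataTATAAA
GRE1: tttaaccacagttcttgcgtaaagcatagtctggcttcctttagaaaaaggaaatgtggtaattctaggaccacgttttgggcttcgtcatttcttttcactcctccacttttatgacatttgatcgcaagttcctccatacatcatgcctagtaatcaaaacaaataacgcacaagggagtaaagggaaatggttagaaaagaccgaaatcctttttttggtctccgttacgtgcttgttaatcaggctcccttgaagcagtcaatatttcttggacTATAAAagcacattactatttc
HSP26: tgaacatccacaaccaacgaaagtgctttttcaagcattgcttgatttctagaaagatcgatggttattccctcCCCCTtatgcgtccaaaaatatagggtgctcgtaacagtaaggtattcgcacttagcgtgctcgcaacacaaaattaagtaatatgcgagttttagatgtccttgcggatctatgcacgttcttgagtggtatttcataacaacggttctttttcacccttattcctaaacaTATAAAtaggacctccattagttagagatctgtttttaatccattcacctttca
HSP12: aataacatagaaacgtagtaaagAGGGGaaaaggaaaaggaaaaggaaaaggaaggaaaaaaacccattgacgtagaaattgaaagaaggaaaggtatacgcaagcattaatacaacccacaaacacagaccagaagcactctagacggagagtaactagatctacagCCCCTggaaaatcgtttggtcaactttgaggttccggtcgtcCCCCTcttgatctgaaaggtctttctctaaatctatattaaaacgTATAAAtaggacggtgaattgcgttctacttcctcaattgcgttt
DDR2: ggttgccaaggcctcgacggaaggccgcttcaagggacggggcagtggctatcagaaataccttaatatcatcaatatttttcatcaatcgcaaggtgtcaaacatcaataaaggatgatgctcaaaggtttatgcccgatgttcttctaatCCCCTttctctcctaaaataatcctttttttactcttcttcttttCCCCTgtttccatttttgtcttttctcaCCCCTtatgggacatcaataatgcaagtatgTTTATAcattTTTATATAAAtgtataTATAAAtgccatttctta

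SIP18 (YMR175W), a phospholipid-binding hydrophilin, was the most abundant of the 7126 rows in both media, with 16930 TPM in YPD and 23507 TPM in YPM. HSP26 (YBR072W), a small heat shock protein, stood at 10426 TPM in YPD and 13550 TPM in YPM. HSP12 (YFL014W), a hydrophilin that associates with the plasma membrane, stood at 13703 TPM in YPD and 12866 TPM in YPM. These 3 genes were among the 5 most abundant rows of each library, and HSP12 ranked above HSP26 in YPD but below it in YPM. Together the 9 genes held 7.07% of the summed TPM in YPD and 7.62% in YPM, and SIP18, HSP26 and HSP12 made up 62.0% of that sum in YPD and 70.8% in YPM. The median row of the table stood at 39.1 TPM in YPD and 35.3 TPM in YPM. Ranks and shares hold for the 7126 rows with values, which summed to 937091 TPM in YPD and 925918 TPM in YPM. The levels of the 4 lines left empty are unknown, and so is whether any of them stood above SIP18.

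None of the 9 genes reached a 2-fold difference between the media. Of the 6350 rows whose mean was 1 TPM or more, 8.43% did, 3.28% higher and 5.15% lower in YPM. The difference was taken as the log2 ratio of YPM to YPD after 1 TPM was added to each value. Among the 326 rows whose mean was 500 TPM or more, a level that all 9 genes reach, the share at 2-fold was 15.6%. Each medium has a single library, so the spread between cultures is unknown and nothing was tested. The log2 ratios ran from -0.63 for SPG4 to 0.47 for SIP18, with 4 genes above 0 and 5 below. Their median was -0.09, where the median was -0.13 over all rows compared and 0.05 over the 326 abundant rows.

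**Figure D1:**
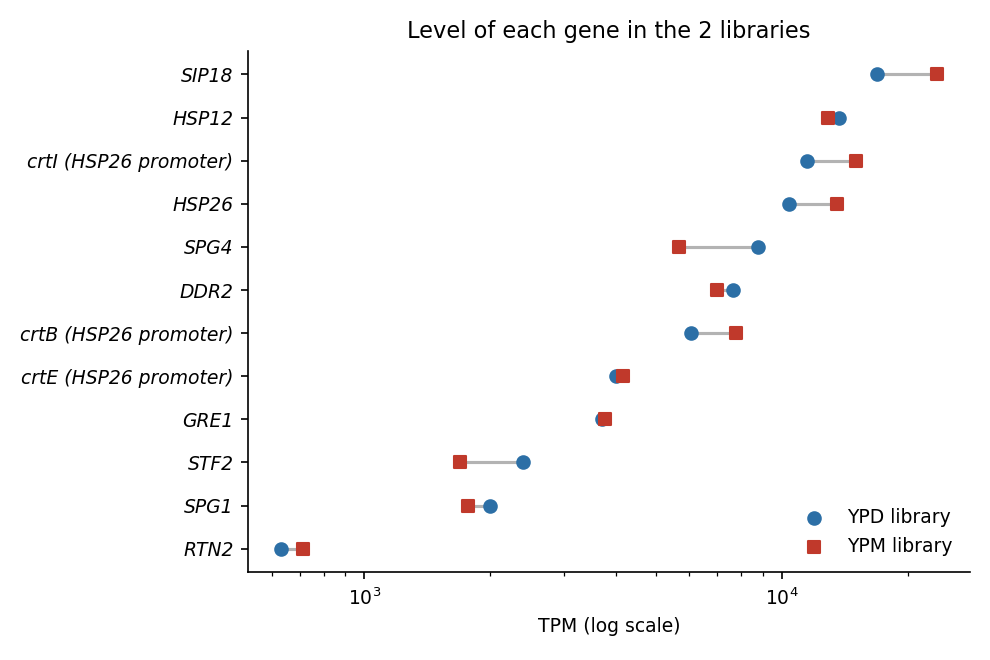
TPM of the 9 genes and of the 3 carotenoid genes behind the HSP26 promoter, on a log scale, with a circle for the YPD library and a square for the YPM library (1 library each, so no error bars). SIP18 is highest in both, at 16930 and 23507 TPM, and RTN2 lowest, at 631 and 715 TPM.

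The hydrophilins lay on both sides of 0. SIP18 was listed 1.39 times as high in YPM as in YPD, the largest upward ratio of the 9 genes, and 6577 TPM separated both libraries. On the log2 scale, 659 of the 6350 rows (10.4%) had a larger value than SIP18, and so did 88 of the 326 abundant rows (27.0%). GRE1 (YPL223C), a hydrophilin controlled by the osmotic stress pathway and the paralog of SIP18, stood at 3705 TPM in YPD and 3775 TPM in YPM (log2 ratio 0.03). SIP18 exceeded GRE1 by 4.57 times in YPD and by 6.23 times in YPM. HSP12 had a log2 ratio of -0.09, and its place above or below 0 depended on the scaling, since it stood at 0.04 once the median gene was set to no change. STF2 (YGR008C), a hydrophilin that binds the mitochondrial ATP synthase and is involved in resistance to desiccation, went from 2398 TPM in YPD to 1696 TPM in YPM (log2 ratio -0.50). It was thus 1.41 times as high in YPD.

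The 4 other genes listed as hydrophilins were far lower and nearly level. ROQ1 (YJL144W) stood at 356 TPM in YPD and 397 TPM in YPM, YNL190W at 256 TPM and 297 TPM, YBR016W at 303 TPM and 298 TPM, and the RNA-binding protein gene NOP6 at 81.3 TPM and 74.9 TPM. Their median log2 ratio was 0.07, and 0 of the 4 reached 2-fold, against 8.43% of all rows compared.

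HSP26 was listed 1.30 times as high in YPM, a log2 ratio of 0.38. The other small heat shock protein of the cytosol, HSP42 (YDR171W), stood on the other side of 0, with 1324 TPM in YPD and 749 TPM in YPM (log2 ratio -0.82). HSP26 therefore stood at 7.87 times the level of HSP42 in YPD and at 18.1 times in YPM. Of the 25 heat shock proteins and Hsf1 targets listed for comparison, 0 reached 2-fold, against 8.43% of all rows compared. Of the 25, 15 were below 0, and their median of -0.14 lay close to the -0.13 of all rows. In that list the largest upward value was 0.53 for AHA1, a cochaperone of Hsp90, and the largest downward value was -0.96 for FES1, a nucleotide exchange factor of Hsp70.

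The carotenoid genes behind copies of the HSP26 promoter can be read against the native gene. The phytoene desaturase gene crtI stood at 11513 TPM in YPD and 15061 TPM in YPM, the phytoene synthase gene crtB at 6050.3 TPM and 7772 TPM, and the geranylgeranyl diphosphate synthase gene crtE at 4009 TPM and 4167 TPM. Relative to HSP26, crtI was at 110% in YPD and 111% in YPM, and crtB was at 58.0% and 57.4%. The ratio of these genes to the native gene thus moved little between media. The ratio of crtE went from 38.5% of HSP26 in YPD to 30.8% in YPM. The 3 genes stand behind copies of 1 promoter and differ in coding sequence, terminator and place in the cassette. Of the 596 words of 50 bases in the HSP26 coding sequence, 0 occur elsewhere in R64. Any leader of HSP26 that the cloned promoters carry would be shared with the carotenoid transcripts, and whether the HSP26 row counts it is not given in the sources used here.

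**Figure D2:**
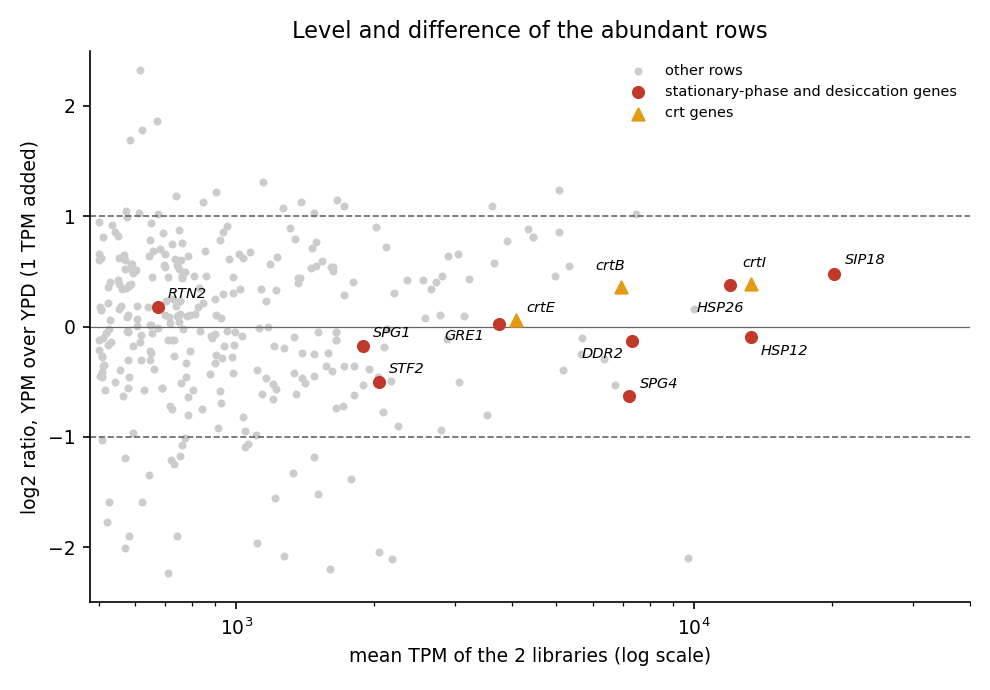
Log2 ratio of YPM over YPD (1 TPM added) against the mean TPM of both libraries on a log scale, for the 9 genes (red circles), the 3 carotenoid genes (orange triangles) and 310 other rows whose mean was 500 TPM or more (grey points). Dashed lines mark 2-fold. The 9 genes lie between -0.63 and 0.47, inside the lines, and 4 other rows lie beyond the drawn range of 2.5 in either direction.

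SPG4 (YMR107W) and SPG1 (YGR236C), both required to survive high temperature in stationary phase, were listed lower in YPM. SPG4 went from 8778 TPM in YPD to 5667 TPM in YPM (log2 ratio -0.63). It was the furthest of the 9 genes from 0 and the 1 gene past 1.5-fold, a limit that 14.9% of all rows and 16.6% of the abundant rows passed in the same direction. This depended on the scaling: once the median gene was set to no change, SPG4 stood at -0.50, short of 1.5-fold, and SIP18 at 0.60, past it and furthest from 0. Over all rows, 828 of 6350 (13.0%) had a lower log2 ratio than SPG4. SPG1 stood at 2000 TPM in YPD and 1773 TPM in YPM (log2 ratio -0.17), and held rank 63 in both libraries. SPG4 was at 4.39 times the level of SPG1 in YPD and 3.20 times in YPM. SPG5 (YMR191W), which acts on proteasome assembly in stationary phase, stood at 961 TPM in YPD and 646 TPM in YPM (log2 ratio -0.57), and SPG3 (YDR504C) at 40.8 TPM and 40.3 TPM. SNZ1 (YMR096W), a vitamin B6 synthesis gene named for its induction in stationary phase, was the 1 gene of this comparison list of 4 that passed 2-fold, at a log2 ratio of 1.90, from 113 TPM in YPD to 426 TPM in YPM. Its divergent partner SNO1 (YMR095C) stood at 34.9 TPM and 49.6 TPM, a log2 ratio of 0.49.

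DDR2 (YOL052C-A), a small multistress protein named for its response to DNA damage, stood at 7655 TPM in YPD and 6978 TPM in YPM, rank 9 in both libraries. Its log2 ratio was -0.13, and it came to 0.00 once the median gene was set to no change. Its paralog HOR7 (YMR251W-A), known for induction by osmotic stress, stood at 1553 TPM in YPD and 1888 TPM in YPM (log2 ratio 0.28). DDR2 exceeded HOR7 by 4.93 times in YPD and by 3.70 times in YPM. RTN2 (YDL204W), a reticulon that bends the membrane of the endoplasmic reticulum into tubules, was the lowest of the 9 genes, with 631 TPM in YPD at rank 240 and 715 TPM in YPM at rank 211. Its paralog RTN1 (YDR233C) stood at 274 TPM and 295 TPM, so that RTN2 was at 2.30 times the level of RTN1 in YPD and 2.42 times in YPM.

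STF2 and its paralog TMA10 (YLR327C), which encodes a ribosome-associated protein, stood further apart in YPM than in YPD. TMA10 went from 2875 TPM in YPD to 4924 TPM in YPM (log2 ratio 0.78), while STF2 went from 2398 TPM to 1696 TPM. TMA10 was at 1.20 times the level of STF2 in YPD and at 2.90 times in YPM. The proteins are the most alike of the pairs compared, with 64.3% identity over 84 aligned residues. The direct inhibitors of the ATP synthase, which STF2 is thought to stabilize on the enzyme, were lower in YPM as well. INH1 (YDL181W) stood at 1052 TPM in YPD and 627 TPM in YPM (log2 ratio -0.74). STF1 (YDL130W-A) stood at 2132 TPM in YPD and 1291 TPM in YPM (log2 ratio -0.72). None of STF2, INH1 and STF1 reached 2-fold.

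**Figure D3:**
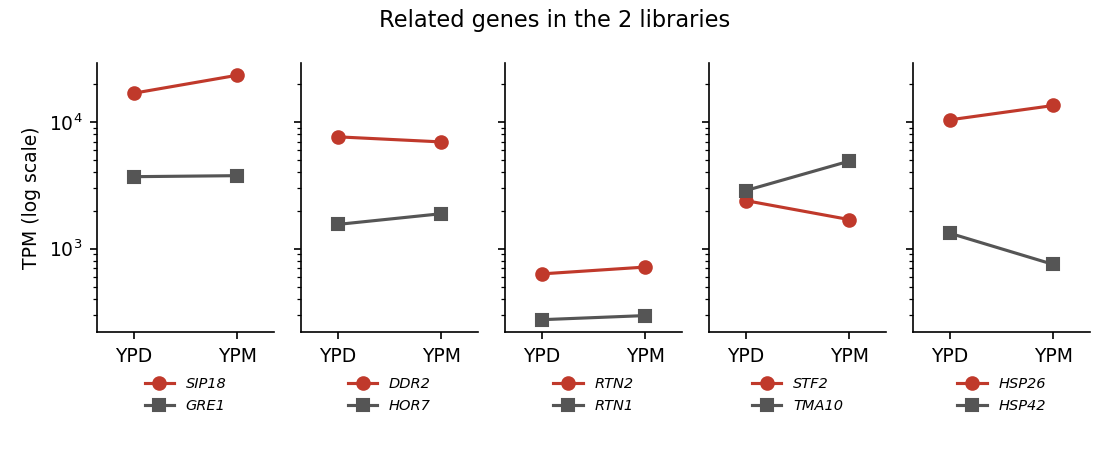
TPM on a log scale in the YPD and the YPM library for 4 pairs of paralogs and for the small heat shock protein genes HSP26 and HSP42, with a line joining the 2 values of each gene. STF2 and TMA10 lie close in YPD (2398 and 2875 TPM) and apart in YPM (1696 and 4924 TPM).

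Other genes of the stress program were set beside the 9 genes through lists that overlap in part. Over all rows compared, 8.43% reached 2-fold and the median log2 ratio was -0.13. Among the rows whose mean was 500 TPM or more, 15.6% reached 2-fold and the median was 0.05. Of 30 general stress genes under Msn2 and Msn4, 1 was past 2-fold upward and 1 downward, with a median log2 ratio of -0.06. The largest upward value was that of the aldehyde dehydrogenase gene ALD3 (YMR169C), with 78.9 TPM in YPD and 303 TPM in YPM, a value left uncertain by its near-identical neighbour ALD2. The largest downward value was that of the glycogen phosphorylase gene GPH1 (YPR160W), with 162 TPM and 80.1 TPM, just past the limit. Of 10 osmotic stress genes, 8 were above 0 and 2 passed 2-fold, with a median of 0.39. The glycerol symporter gene STL1 (YDR536W) led this list, at a log2 ratio of 3.54 with 7.41 TPM in YPD and 97.1 TPM in YPM, followed by the cell wall protein gene SED1 (YDR077W) at 1.02. The lowest value of this list was that of the catalase gene CTT1 at -0.46. SIP18 and GRE1, which osmotic stress also induces, stood at 0.47 and 0.03. Of 16 regulators, 0 reached 2-fold, and their values ran from -0.41 for TPK2, a subunit of protein kinase A, to 0.40 for SKN7, a regulator of the oxidative stress response. MSN2 stood at 37.3 TPM in YPD and 44.2 TPM in YPM, MSN4 at 57.4 TPM and 53.6 TPM, GIS1 at 60.6 TPM and 59.1 TPM, and HSF1 at 82.3 TPM and 72.4 TPM.

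The rows whose pair of values lay nearest to each gene were found by Euclidean distance of log2(TPM + 1) over both libraries. SPG4 lay nearest to the galactose genes GAL10, at a distance of 0.15, and GAL7, at 0.33, and DDR2 lay nearest to the same 2 genes at 0.35 and 0.32. STF2 was nearest to OM14, at 0.03, and OM45, at 0.12, both genes of outer mitochondrial membrane proteins, and SPG1 to OM45, at 0.16, and the cytochrome c oxidase subunit gene COX13, at 0.17. Among these candidates, HSP12 and HSP26 were nearest to the glycolytic gene TDH3, at 0.60 and 0.38. SIP18 had no near row among the candidates, since TDH3 lay 1.43 away. GRE1 was nearest to ZEO1 at 0.36 and TEF2 at 0.40, and RTN2 to BMH1 and MRP8, both at 0.09. The carotenoid gene crtI, at 11513 TPM in YPD and 15061 TPM in YPM, lay nearer than TDH3 to HSP26, HSP12 and SIP18. Likewise crtE, at 4009 TPM in YPD and 4167 TPM in YPM, lay nearer than ZEO1 to GRE1. The second row was SED1 for SIP18, at 2.17, and for HSP26, at 1.17, and GAL10 for HSP12, at 1.45. TDH3 and TEF2 have near-identical paralogs, which leaves their values uncertain. With 2 libraries, such nearness says only that level and ratio were alike.

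STRE matches were uneven among the 9 promoters. In the window from 250 bases before to 50 bases after the start of the coding sequence, CCCCT on either strand was found in 4 of the 9 genes, where 21.6% of 6001 protein-coding genes had it. DDR2 had 3 matches and HSP12 had 2, while 0.483% of all such windows had 3 or more and 2.93% had 2 or more. In the 500 bases before the start, a window added after the values were seen, 6 of the 9 genes had a match, against 34.1% of 6000 genes. HSP12 then had 5 matches, DDR2 4, HSP26 3, SIP18 and STF2 2 each, and RTN2 1. GRE1, SPG1 and SPG4 had none in these letters. A match is a description of the sequence and not a bound site.

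A TATAAA match on either strand was found in all 9 genes in the first window, where 45.2% of genes had one. In each of the 9 genes a match began between 90 and 160 bases before the start, a band set after the positions were seen, and 19.3% of 6000 genes had one there. The heat shock element, searched as GAANNTTC or TTCNNGAA, was found in the first window of SPG1 alone among the 9. Of all genes, 22.6% had it there. The match in SPG1 lay inside the coding sequence and not in the promoter. In the 250 bases before the start, 0 of the 9 genes had the element, against 19.3% of all genes. In the 500 bases before the start it was found once each in HSP26, DDR2, SPG4 and STF2, where 35.2% of genes had it. The post-diauxic element, searched as TNAGGGAT on either strand, was found in SIP18 alone, 134 bases before the start, and in 2.70% of all first windows.

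**Figure D4:**
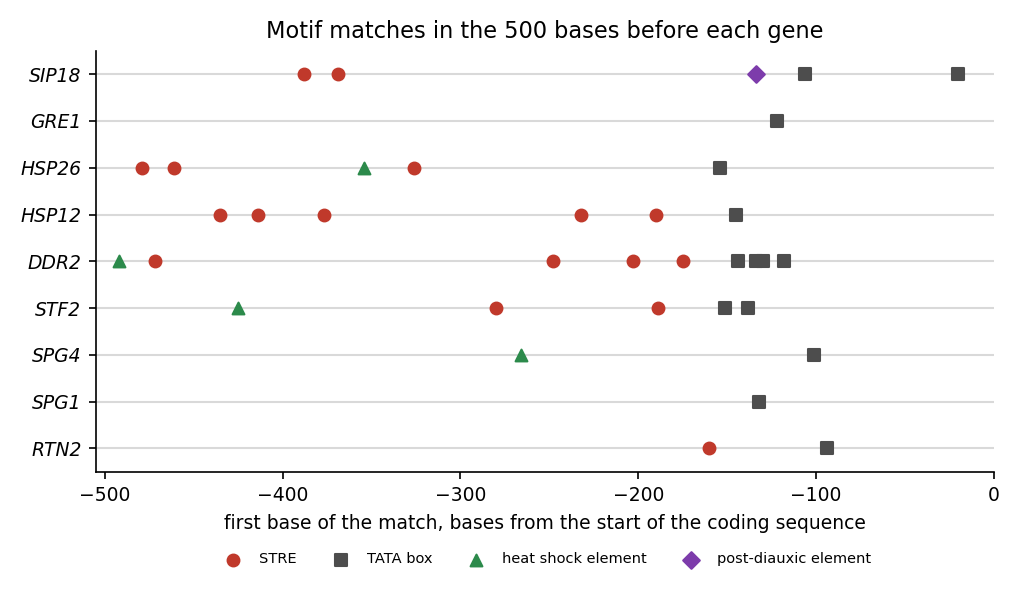
Places of motif matches in the 500 bases before the coding sequence of each of the 9 genes, as the distance of the first base of the match from the start. Red circles mark STRE, grey squares TATA boxes and green triangles heat shock elements. A purple diamond marks TNAGGGAT, the loose form of the post-diauxic element. Each gene has a TATA match between 90 and 160 bases before the start, and STRE matches are found in 6 of the 9.

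Most of the 9 genes are short. Of them, 6 have a coding sequence of at most 400 bases in R64, from 186 bases for DDR2 to 348 bases for SPG4, while GRE1 has 507, HSP26 645 and RTN2 1182 bases. The median over all 9 was 330 bases, against 1235 bases over the 5762 protein-coding rows compared. The 464 protein-coding rows of at most 400 bases had medians of 94.1 TPM in YPD and 84.6 TPM in YPM, against 47.4 TPM and 43.6 TPM over all protein-coding rows. Of these, 5 were above 5000 TPM in both libraries, and 4 of the 5 were SIP18, HSP12, DDR2 and SPG4. The 9 genes were chosen by their TPM, so their high levels and their place in this count follow from that choice. How far the length correction of short transcripts sets these levels was not tested. No member had a word of 50 bases elsewhere in R64, and none overlapped another annotated gene of R64.

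The coding sequences lie at chrXIII:611016-611255 (SIP18), chrXVI:128632-129138 (GRE1), chrVI:107256-107585 (HSP12), chrII:382030-382674 (HSP26), chrXV:231570-231755 (DDR2), chrVII:962530-962817 (SPG1), chrXIII:483014-483361 (SPG4), chrIV:94605-95786 (RTN2) and chrVII:508110-508364 (STF2) in R64. SIP18 faces away from PAI3 (YMR174C), the gene of a proteinase A inhibitor, across 650 bases that hold the promoters of both. PAI3 was itself abundant, with 5909 TPM in YPD and 5491 TPM in YPM (log2 ratio -0.11), so that SIP18 exceeded it by 2.87 times in YPD and by 4.28 times in YPM. The next genes of the other members with a value were at most 212 TPM in YPM. The gene 5′ of STF2, SEC9 (YGR009C), which yeast needs to grow, was listed at 0 in both libraries, so a 0 in this table does not show that a transcript was missing. All 9 genes were listed above 0.

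The encoded proteins fall into unlike groups by composition. The median protein of the 6002 in R64 had 4.94% glycine and a mean hydropathy of -0.39 on the Kyte-Doolittle scale, on which low values are hydrophilic. GRE1, with 168 residues, had 13.1% glycine and a hydropathy of -1.85, the 4th lowest of all. STF2 (84 residues, 11.9% glycine) and SIP18 (79 residues, 12.7% glycine) had hydropathies of -1.61 and -1.55, ranks 12 and 16 from the lowest. HSP12 (109 residues, 11.9% glycine) stood at -1.21, rank 114. SPG4, with 115 residues, was also hydrophilic at -1.17, rank 144, with 6.96% glycine. DDR2, with 61 residues, was on the opposite side with a hydropathy of 0.76, above 99.2% of proteins, and 1.64% charged residues. HSP26, RTN2 and SPG1 lay nearer to the middle, at -0.69, -0.62 and -0.12. SIP18 and GRE1 had 36.7% identity over 79 aligned residues, DDR2 and HOR7 45.8% over 59, and RTN2 and RTN1 33.2% over 295.

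**Figure D5:**
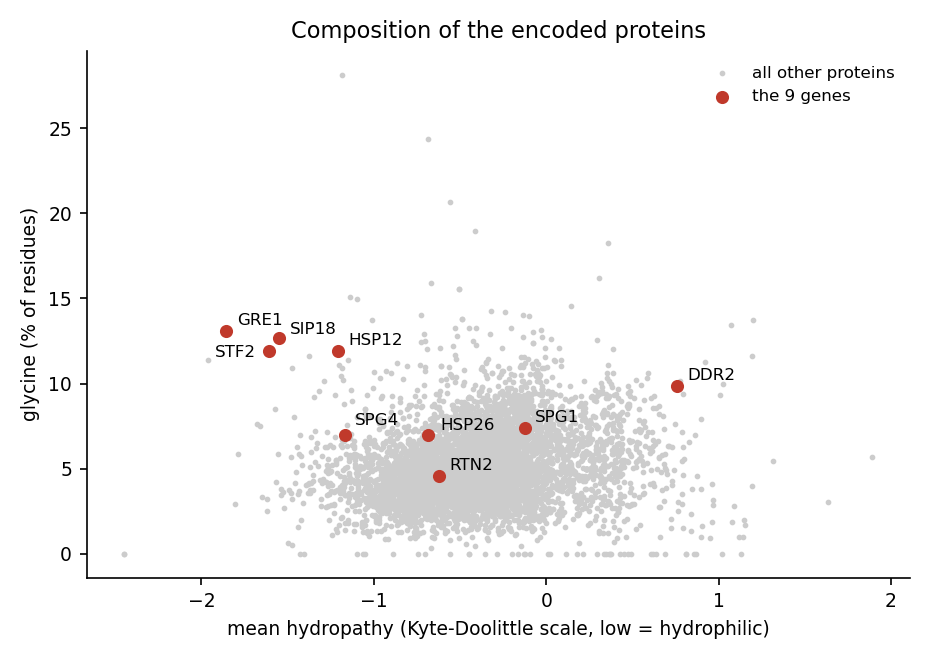
Share of glycine among the residues (%) against mean hydropathy for the 9 proteins (red) and all other proteins of R64 (grey). GRE1, STF2, SIP18 and HSP12 lie at the hydrophilic, glycine-rich edge, with 11.9% to 13.1% glycine, and DDR2 at the hydrophobic side, at 0.76.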

How the data were processed

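The authors prepared polyA-selected libraries of BL03-D-4 after 24 h in YPD and in YPM, ran RSEM and deposited its TPM in a table that has 1 column for each library. HISAT2, StringTie and RSEM are named in the submitters' processing notes. The genome build, the annotation and the use of strand are not given in the sources used here, and TPM keeps no record of depth, so no interval or limit of detection is given. The column MYPD was taken as YPM, which the labels call modified YPD. Of the lines of the table, 4 were left empty for this work and are not analysed here.

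Log2 ratios of YPM to YPD were taken after adding 1 TPM, among rows whose mean was 1 TPM or more. With 1 library per medium no test between the media was run. The members and lists were chosen with earlier results of these data known. Named genes are the members, all genes of the short lists, the largest rise and fall of each longer list with a mean of at least 10 TPM, and the 2 nearest protein-coding rows of each member. PAI3 and SEC9 were chosen after their values were seen, as were SED1 and the regulators MSN2, MSN4, GIS1 and HSF1. Names, lengths, coordinates, promoters and protein composition came from RefSeq R64, which matched 6044 of the 7126 rows. Protein pairs were aligned with BLOSUM62, with penalties of 11 to open and 1 to extend a gap. The calls were tested on simulated data, which cannot show the spread between cultures. Alternatives were other pseudocounts (0.1 or 5 TPM, or none), minimums, scalings and windows. Python 3.11.15, pandas 2.3.3, numpy 2.4.6, Biopython 1.88 and matplotlib 3.10.9 were used.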

Additional observations from a re-analysis of the deposited data

How the results depend on the processing

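No replicate exists, so differences could be compared only across settings of 1 pair of libraries. A shift of over 0.15 in a log2 ratio, of over 10% in a share, or of over 1.5 times in a count was taken as a move. Among the settings that can alter the ratio of a single gene, the largest shift of the 9 genes was 0.13, when the median gene was set to no change, which shifts all genes nearly alike. The median of the 9 genes then stood at 0.04, and 5 of them were above 0. Leaving out 1 gene at a time moved the median between -0.11 and -0.03. With a limit of 1.5-fold, 1 of the 9 genes was called, SPG4 at -0.63, but SIP18 at 0.60 in its place once the median gene was set to no change. At that limit, 1445 of the 6350 rows compared were called, 500 higher and 945 lower in YPM. Beside that share, the limit called 7 of 30 general stress genes, 4 of 25 heat shock genes and 4 of 10 osmotic stress genes. It also called 2 of 4 related genes (TMA10 and HSP42) and both ATP synthase inhibitor genes (2). With 5 TPM added, 354 of all rows were at 2-fold, 203 of them lower in YPM. The general stress genes at 2-fold went from 2 to 1 with 5 TPM added, with the median gene set to no change, over protein-coding rows, and without the 9 genes and the carotenoid genes, because GPH1 lies on the limit. The 9 genes held 8.42% of the TPM of protein-coding rows in YPM, and they amounted to 8.51% in YPM and 7.80% in YPD of the sum of all rows without them and the carotenoid genes. The heat shock element was found in 0 of the 9 genes in the 250 bases before the start and in 4 in the 500 bases before it. Setting the median gene to no change gave 255 rows higher and 257 lower in YPM, in place of 208 and 327. The unknown depth and the unstated strand limit every value. No paired analysis was possible because each medium has 1 library.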
